A study of Mus musculus with 4 samples.

Results

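Potassium channel subunits were described in RNA sequencing of the mouse prelimbic cortex, a medial prefrontal area. Members were the protein-coding genes whose symbol starts with Kcn, goes on with at least 1 further letter and then a digit. They numbered 84 of the 19175 genes listed in either deposited table, 78 in the table of the virus experiment and 52 in that of the stress experiment, with 46 in both. The mouse annotation GENCODE M21 holds 93 protein-coding genes of that form, among them all 84.

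All 4 libraries came from prelimbic tissue of C57BL/6 mice aged 8 weeks, with 1 library per group. In the stress experiment a control library stands beside one from stress-susceptible mice, and both carry the label of chronic social defeat stress, in which mice are exposed repeatedly to an aggressor. What the control mice went through is therefore not clear from the labels. Where the text says after stress, it means the susceptible library against the control library. In the virus experiment mice were given an adeno-associated virus (AAV) that carries green fluorescent protein (AAV-GFP) or CDYL, a chromatin corepressor (AAV-CDYL). The labels name neither the promoter nor the serotype of the virus, nor say whether a library is 1 mouse or a pool. The questions are which members differ when CDYL is overexpressed and which differ between susceptible and control mice.

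Potassium channels let potassium leave the cell down its gradient, which sets the resting potential, ends action potentials and limits repeated firing. Voltage-gated subunits open on depolarisation, inward rectifiers hold cells near rest and include channels opened by G proteins or closed by ATP, tandem-pore subunits carry background leak, and other subunits open on internal calcium or sodium. In cortex most of these genes are known from neurons, while a few are known mainly from astrocytes, microglia, lymphocytes or vessel cells.

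Values are FPKM, that is, sequenced fragments scaled to the length of the gene and the size of the library. Effective depth, read from the spacing of low values, ranged from 14300000 fragments in the control library to 23900000 with AAV-CDYL, with 22600000 and 23200000 in the AAV-GFP and susceptible libraries. A transcript of 2 kb at 1 FPKM was thus backed by 28.6 to 47.8 fragments. Genes above 0 in both libraries appear in the tables only from a log2 ratio of 0.32 upwards in size. A member that is not listed thus has no value here and is not thereby shown to be alike. Members were compared if they reached 1 FPKM in either library, and are called higher or lower if log2(FPKM + 1) differed by at least 1.5-fold. Folds given for single genes are ratios of FPKM. With 1 library per group no difference has a replicate check, and counting intervals (95%, exact, from approximate fragment numbers) cover counting error only. Cdyl itself was at 2.68 FPKM with AAV-GFP and 1052 FPKM with AAV-CDYL. The defining neuron markers of the tissue were present, at a summed 3598 FPKM for 8 listed markers with AAV-GFP and 2426 FPKM for 7 in control.

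With AAV-CDYL, most potassium channel subunits lay below their AAV-GFP value, and few were higher. Of those known mainly from non-neuronal cells, Kcnj10, Kcnk6 and Kcnk13 were higher, while Kcna3 and Kcnk1 lay below AAV-GFP. Kcnn4, also known from such cells, and Kcne1l, not counted among these, were higher as well. Both were under 1 FPKM with AAV-GFP and could be compared only by being higher. Of 61 members past 1 FPKM, 37 were lower, beside 14.4% of all listed genes past the same floor. Only 5 of the 61 were higher, beside 31.3% of all genes. Genes under 1 FPKM with AAV-GFP pass the floor only by being higher, so the same was counted at 1 FPKM or more with AAV-GFP: 37 of 58 members were lower and 3 higher, beside 17.4% and 21.2% of all such genes. In all, 54 of 61 members lay below their AAV-GFP value, beside 46.6% of all genes. Without those that had to be higher to pass the floor, these were 54 of 58 members, beside 3752 of 6679 genes. The median difference of the members was -0.66 on the log2(FPKM + 1) scale, and that of all genes was 0.30. Members at 1 FPKM or more with AAV-GFP had a median difference of -0.67, against -0.32 for all such genes. Summed over the 78 listed members, FPKM went from 1518 to 978, a change of -35.6%, while the sum over all listed genes changed by -1.40%.

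Markers of neurons lay at similar differences. The 8 neuron markers past the floor ranged from -0.99 to -0.45 with a median of -0.64, and their summed level went from 3598 to 2328 FPKM. Of the 61 members, 41 lay within that range, 17 above it and 3 below it, namely Kcnab3, Kcnv1 and Kcnq3. Excitatory neuron markers had a median of -0.55 and interneuron markers of -0.59, over narrower ranges. Of the 61 members, 22 lay below the lowest excitatory neuron marker (-0.75) and 12 above the highest. Likewise 22 lay below the lowest interneuron marker (-0.74) and 10 above the highest. Most markers of other cells were higher: all 10 of 10 oligodendrocyte markers (summed 658 to 2555 FPKM), 6 of 7 astrocyte markers (211 to 708 FPKM) and 9 of 10 microglia and macrophage markers (176 to 1408 FPKM). Most of the rise in the astrocyte sum was Gfap, at 5.85 and 386 FPKM. The median of the 7 astrocyte markers was 0.83, and Gjb6 was lower, at 44.7 and 19.5 FPKM (-1.16). T cell and lymphocyte markers went from a summed 2.49 to 42.1 FPKM, but 7 of the 8 past the floor were under 1 FPKM with AAV-GFP and could pass it only by being higher. The T cell markers Cd3d, Cd3g, Cd8a and Nkg7 were listed at 0 with AAV-GFP. The part of these markers in the differences of the members was not tested, and in bulk tissue fewer cells of a type cannot be told apart from less RNA per cell.

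**Figure D1:**
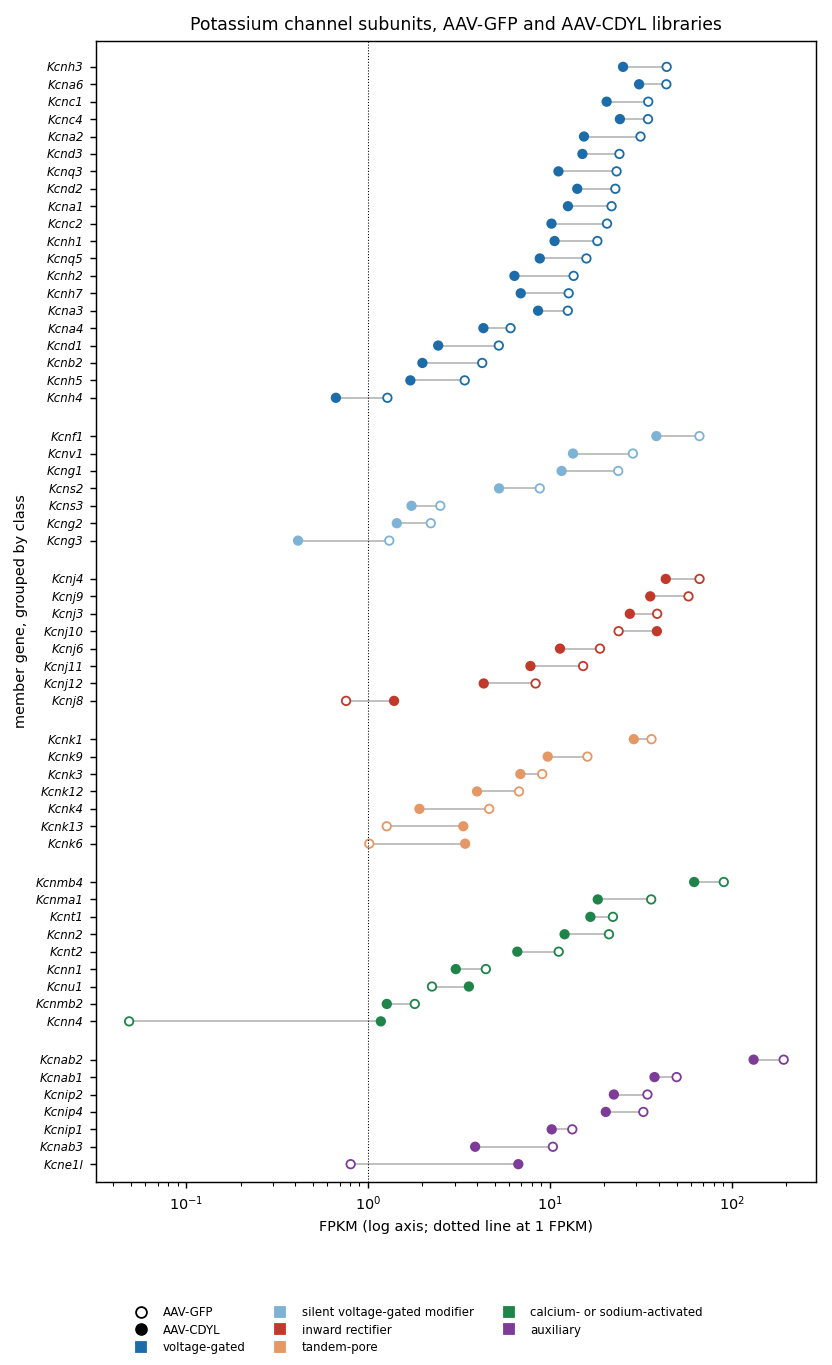
FPKM of members past 1 FPKM with AAV-GFP (open points) and AAV-CDYL (filled points), on a log axis and grouped by channel class, 1 library each. The voltage-gated members drawn all lie to the left of their AAV-GFP value, while Kcnj10, Kcnk6, Kcnk13, Kcnn4 and Kcne1l lie to the right.

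Counts by class stand beside the shares of all genes given above, 14.4% lower and 31.3% higher. At 1 FPKM or more with AAV-GFP these shares were 17.4% and 21.2%. The voltage-gated class lay below AAV-GFP throughout. All 23 members past the floor differed by between -0.998 and -0.41, with 18 lower by the rule, 0 higher and a median of -0.77. Their summed level went from 552 to 316 FPKM. Kcnq3 and Kcnq5, subunits of the M-current, a slow current that restrains repetitive firing, were both lower. Kcnq3 was at 23.3 FPKM with AAV-GFP and 11.2 FPKM with AAV-CDYL, a ratio of 0.479 with a counting interval of 0.459 to 0.5003. Kcnq5 was at 15.9 and 8.83 FPKM. In the authors' deposited table Kcnq3 had a p-value of 0.033 and a q-value of 0.844.

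The Kcna family, whose channels sit largely along axons, was less even. Kcna2 was at 31.6 and 15.4 FPKM (difference -0.99) and Kcna1 at 21.9 and 12.6 FPKM (-0.75), both lower. Kcna6 was at 43.8 and 31.0 FPKM (-0.48), Kcna3, a subunit also known from T cells and microglia, at 12.6 and 8.64 FPKM (-0.49) and Kcna4 at 6.10 and 4.33 FPKM (-0.41), none past the rule. Exons of Kcna6 overlap those of Gm26673 over 39.6% of their length, and the library kit does not mark strand, so fragments there cannot be assigned with certainty. Kcna3 and Kcna2 are neighbours on chromosome 3, with 63076 bases between them.

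Kcnb2, a delayed rectifier, was at 4.26 FPKM with AAV-GFP and 1.999 FPKM with AAV-CDYL (-0.81). The Kcnc subunits allow fast-spiking interneurons to fire at high rates. Kcnc2 (20.7 to 10.2 FPKM) and Kcnc1 (34.9 to 20.6 FPKM) were lower, and Kcnc4, at 34.7 and 24.3 FPKM, was within the rule. All 3 Kcnd subunits, which carry the dendritic A-type current, were lower, at differences of -0.86 for Kcnd1, -0.66 for Kcnd2 and -0.64 for Kcnd3. Of the Kcnh family 5 of 6 were lower, with the largest difference for Kcnh2, the ether-a-go-go-related channel (13.5 to 6.41 FPKM, -0.97), and the highest level for Kcnh3 (44.0 to 25.3 FPKM, -0.77).

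Silent modifier subunits form no channel alone and join Kcnb subunits to change their gating. All 7 past the floor lay below AAV-GFP, 5 of them lower, with a median of -0.71. Kcnv1 was at 28.7 and 13.4 FPKM (-1.04), Kcng1 at 23.8 and 11.6 FPKM (-0.97) and Kcnf1, the most abundant of the class, at 66.6 and 38.6 FPKM (-0.77). By ratio Kcng3 stood furthest apart, at 1.31 and 0.414 FPKM, a ratio of 0.315 with a counting interval of 0.204 to 0.467. In the authors' deposited table the p-values were 0.0391 for Kcnv1 and 0.0465 for Kcng1.

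Of 8 inward rectifiers past the floor 5 were lower and 1 was higher, and the median was -0.64. The G-protein-gated subunits Kcnj9 (58.0 to 35.8 FPKM, -0.68) and Kcnj6 (18.9 to 11.4 FPKM, -0.68) were lower, and Kcnj3, at 39.0 and 27.6 FPKM (-0.48), was within the rule. Kcnj11, the pore of the ATP-sensitive channel, was at 15.3 and 7.85 FPKM (-0.88). The classical inward rectifiers Kcnj12 (8.37 to 4.34 FPKM, -0.81) and Kcnj4 (66.7 to 43.5 FPKM, -0.61) were lower as well. Kcnj10, the potassium-buffering channel of astrocytes and oligodendrocytes, was higher, at 23.9 and 38.9 FPKM (0.68). Kcnj8, known from pericytes, was at 0.760 and 1.40 FPKM (0.44), within the rule.

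Kcnj9 and Kcnj10 lie 11892 bases apart on chromosome 1 and differed in opposite directions, at -0.68 and 0.68. Centred on the median of all genes, 0.30, these were -0.98 and 0.38, and Kcnj10 was no longer past the rule. That centre includes genes that pass the floor only by being higher. At 1 FPKM or more with AAV-GFP the median of all genes was -0.32. Scaled to a common upper quartile, Kcnj10 was at 0.76 and stayed past the rule. Their upstream stretches of 150 bases are shown because the genes are neighbours with opposite differences, beside those of Kcnk12, the tandem-pore member lower in both experiments, and Kcnn4, which was close to 0 with AAV-GFP. The sequences are RefSeq's on build GRCm38.p6, on the strand of the gene and ending next to its start, and capitals mark CpG.
Kcnj9 (chr1:172329323-172329472, minus strand): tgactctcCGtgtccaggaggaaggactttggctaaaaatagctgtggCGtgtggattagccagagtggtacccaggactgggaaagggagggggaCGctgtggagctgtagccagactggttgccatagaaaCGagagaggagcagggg
Kcnj10 (chr1:172341060-172341209, plus strand): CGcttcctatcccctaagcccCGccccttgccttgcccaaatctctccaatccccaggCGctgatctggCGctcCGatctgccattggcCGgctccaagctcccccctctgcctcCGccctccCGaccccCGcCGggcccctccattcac
Kcnk12 (chr17:87797995-87798144, minus strand): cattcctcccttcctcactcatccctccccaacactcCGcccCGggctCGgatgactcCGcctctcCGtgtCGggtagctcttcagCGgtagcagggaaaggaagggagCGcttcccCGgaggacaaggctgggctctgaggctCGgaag
Kcnn4 (chr7:24370113-24370262, plus strand): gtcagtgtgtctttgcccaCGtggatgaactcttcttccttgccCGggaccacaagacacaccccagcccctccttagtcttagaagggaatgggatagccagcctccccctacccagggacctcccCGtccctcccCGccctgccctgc

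The Kcnj10 and Kcnk12 stretches hold 10 CpG each, and the Kcnj9 and Kcnn4 stretches 4 each. Over the 250 bases upstream of the start, the ratio of observed to expected CpG was at least 0.6 in 22 of the 60 members with a RefSeq promoter and in 36.5% of all genes. Among members lower with AAV-CDYL it was so in 12 of 22, and among those higher in 1 of 4. Among those within the rule it was so in 5 of 15, and among those under the floor in 4 of 15. Where a gene had several promoters, the one with the highest ratio was taken. A link between this ratio and the differences was not tested. Of motifs searched on both strands in the same windows, the TATA box TATAAA was in 3 of 79 member promoters, those of Kcnj9, Kcnj13 and Kcnj16, against 12.4% of all promoters. The E-box CACGTG was in 6 of 79, Kcnn4 among them, against 6.02%. The cAMP response element TGACGTCA was in 0 of 79, against 1.55%. Of the RE1 site, bound by the repressor REST, the stretch TTCAGCACC was in the promoter of Kcnh6 alone among members, and GGACAGCG in that of Kcnj4 alone, against 0.301% and 0.992% of all promoters. These are matches of letters only.

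Tandem-pore subunits differed in both directions, with 3 of 7 lower, 2 higher and a median of -0.35. All 7 were at 1 FPKM or more with AAV-GFP, where 17.4% of all genes were lower and 21.2% higher. Kcnk4, a mechanosensitive leak channel, was at 4.65 FPKM with AAV-GFP and 1.92 FPKM with AAV-CDYL (-0.95), Kcnk9, an acid-sensitive leak channel, at 16.1 and 9.76 FPKM (-0.67), and Kcnk12 at 6.79 and 3.99 FPKM (-0.64). Kcnk1, the most abundant of the class, was at 36.3 and 29.0 FPKM (-0.31) and Kcnk3 at 9.11 and 6.91 FPKM (-0.35), both within the rule. Kcnk6, which macrophages use for potassium efflux, was at 1.02 and 3.43 FPKM, a ratio of 3.37 with a counting interval of 2.67 to 4.28. Kcnk13, the leak channel of resting microglia, was at 1.27 and 3.35 FPKM, a ratio of 2.64 with an interval of 2.07 to 3.42. Both were higher, and both lie in a locus of their own.

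Among calcium- and sodium-activated subunits the median was -0.43, and 3 of 9 were lower and 1 was higher. Kcnma1, the pore of the large-conductance calcium-activated channel, was at 36.2 and 18.4 FPKM (-0.94). Its neuronal partner Kcnmb4 was at 90.7 and 62.3 FPKM (-0.53), within the rule, and 31.5% of its exonic length is shared with antisense genes. Kcnn2, a small-conductance subunit of the afterhyperpolarisation, was at 21.2 and 12.1 FPKM (-0.76). Of the sodium-activated subunits, Kcnt2 (11.2 to 6.64 FPKM, -0.68) was lower and Kcnt1 (22.3 to 16.8 FPKM, -0.39) was within the rule. Kcnn4, the intermediate-conductance channel of lymphocytes and activated microglia, was at 0.0488 and 1.18 FPKM, or about 2.19 and 56.2 fragments, a ratio of 24.2 with a counting interval of 6.996 to 224. Kcnu1, known as a sperm channel, was at 2.26 and 3.60 FPKM (0.50), within the rule.

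Auxiliary subunits do not conduct but set surface number and gating, and of 7 past the floor 3 were lower and 1 was higher, at a median of -0.55. Kcnab2, which binds Kcna channels, had the highest level of all members, at 194 and 132 FPKM (-0.55), within the rule. Kcnab3 had the largest decrease of all members on the log2(FPKM + 1) scale, from 10.4 to 3.90 FPKM (-1.22), a ratio of 0.374 with a counting interval of 0.320 to 0.435, and its antisense gene Kcnab3os shares 5.13% of its exonic length. The Kcnd partners Kcnip4 (32.8 to 20.4 FPKM, -0.66) and Kcnip2 (34.5 to 22.6 FPKM, -0.59) were lower, though Kcnip4 lies in a locus of 21 listed genes. Kcne1l, a small single-span subunit, was the member furthest above its AAV-GFP level on the log2(FPKM + 1) scale, at 0.806 and 6.73 FPKM (2.10), a ratio of 8.35 with a counting interval of 5.65 to 12.9.

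**Figure D2:**
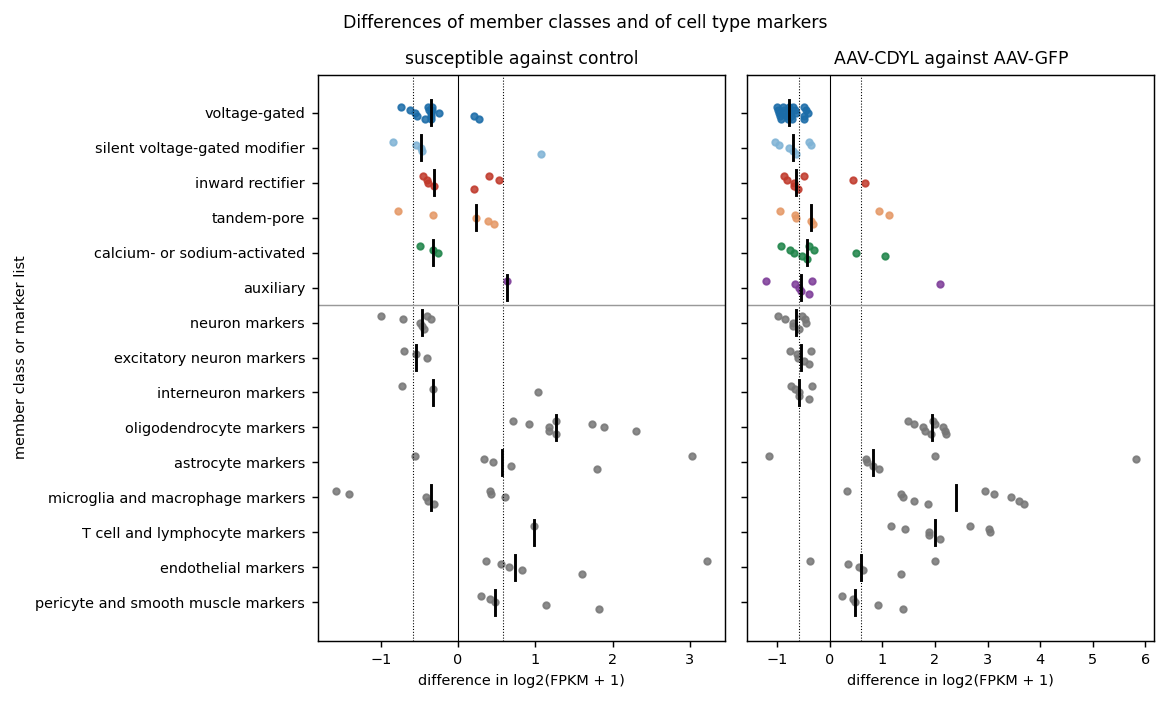
Difference on the log2(FPKM + 1) scale of each member past 1 FPKM, by channel class, and of cell type markers (grey), susceptible against control on the left and AAV-CDYL against AAV-GFP on the right, with 1 point per gene, black bars at medians and dotted lines at 1.5-fold. Voltage-gated members lie between -0.998 and -0.41 with AAV-CDYL, in the range of the neuron markers or close to it, and between -0.74 and 0.28 after stress.

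By level, the decreases were spread over abundant and moderate members. At 20 FPKM or more with AAV-GFP the median was -0.67, and the rule called 19 of 28 members lower and 1 higher. Between 5 and 20 FPKM 14 of 18 were lower, with a median of -0.71. Between 1 and 5 FPKM the median was -0.41, with 4 of 12 lower and 2 higher. All listed genes were not counted by these ranges. Whether the members stand apart from other genes of like level was therefore not tested. The 3 members under 1 FPKM with AAV-GFP that passed the floor could only do so by being higher with AAV-CDYL. These were Kcne1l, Kcnn4 and Kcnj8, and they are not counted as support for any direction.

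A list of 14 members known mainly from non-neuronal cells, chosen with earlier results of these data known, had 7 members past the floor, of which Kcnn4 and Kcnj8 passed it only by being above AAV-GFP. The other 5 reached 1 FPKM in the AAV-GFP library, and 3 of them were higher and 0 lower, namely Kcnj10, Kcnk6 and Kcnk13, beside 21.2% and 17.4% of all such genes. The median of the 5 was 0.68. The 54 members outside that list had a median of -0.68. Of these, 37 were lower and 1, Kcne1l, higher, beside 14.4% and 31.3% of all genes past the floor. Kcna3 and Kcnk1 were the listed members below AAV-GFP. Most oligodendrocyte, astrocyte and microglia markers given above were also higher, and their part in the differences of these 3 members was not tested.

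Most partner proteins of these channels also lay below AAV-GFP. Of 22 channel partner proteins past the floor, 10 were lower, 0 were higher and the median was -0.49. At 1 FPKM or more with AAV-GFP, 10 of 21 were lower and 0 higher, beside 17.4% and 21.2% of all such genes. The median of the 21 was -0.51, against -0.32 for all such genes. Cntnap1, which organises the axon around the node, was at 48.0 and 21.1 FPKM (-1.15), Rgs7bp, which speeds the closing of G-protein-gated channels, at 57.9 and 30.8 FPKM (-0.89), and Amigo1, a partner of delayed rectifiers, at 32.0 and 18.6 FPKM (-0.75). Among 10 potassium pumps and cotransporters that reached 1 FPKM in the AAV-GFP library the rule called 5 higher and 2 lower, beside 21.2% and 17.4% of all such genes. The median of the 10 was 0.12. The neuronal cotransporter Slc12a5 (133 to 78.1 FPKM, -0.76) was among the lower. Fxyd1 (18.2 to 61.9 FPKM, 1.71) had the largest increase of that list on the log2(FPKM + 1) scale, and Slc12a7 was at 0.370 and 1.96 FPKM.

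Between susceptible and control libraries the members differed less, and few reached the rule. Of 36 members past the floor, 4 were lower and 2 higher, beside 10.8% and 18.9% of all listed genes, and the shares of members, 11.1% and 5.56%, put the lower count near that background. The median difference was -0.35, against 0.24 for all genes and, at 1 FPKM or more in control, -0.35 against -0.29. Centred on 0.24, 19 of 36 members were lower and the members' median was -0.60. That centre includes genes under 1 FPKM in control, which pass the floor only by being higher. The 19 are therefore not read as a result about the members. Below their control value lay 26 of 36 members, beside 47.7% of all genes. At 1 FPKM or more in control these were 26 of 35 members, beside 2543 of 4649 genes. The summed level went from 660 to 524 FPKM, a change of -20.7%, while that of all listed genes changed by -17.7%. For genes above 0 in both libraries the listed log2 ratios start at 0.32 in size, so the median of -0.35 lies close to the smallest difference the table can hold for an abundant gene, and 41 of 93 members have no value in it.

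**Figure D3:**
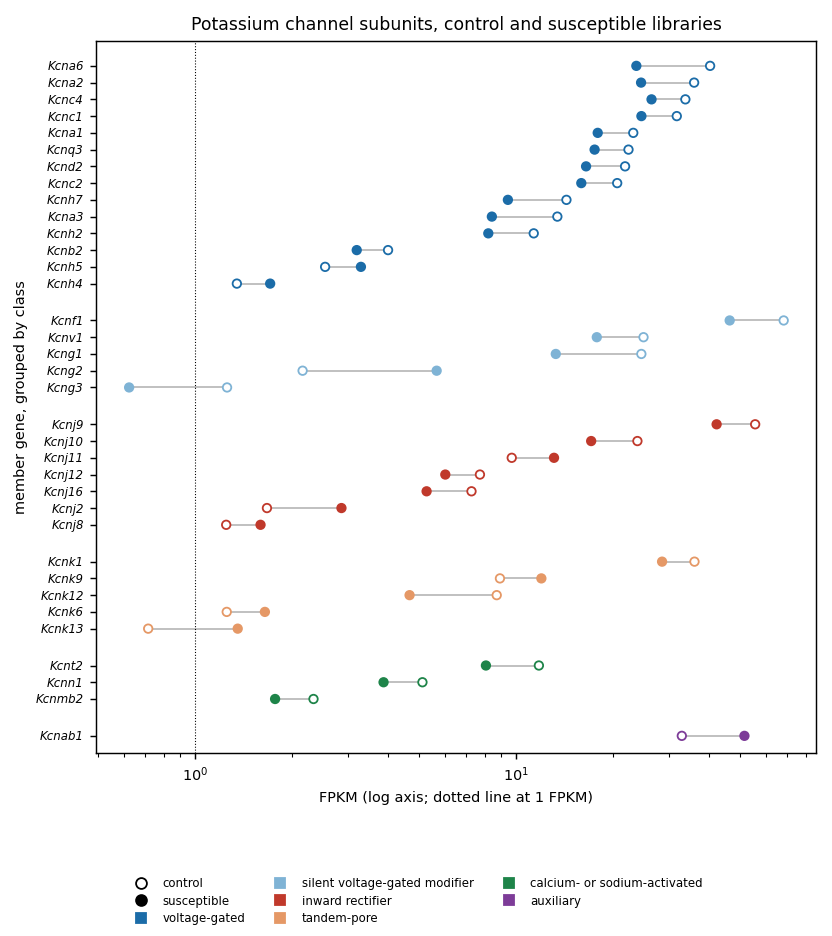
FPKM of members past 1 FPKM in the control library (open points) and the susceptible library (filled points), on a log axis and grouped by channel class, 1 library each. Most lines are short, with the longest for Kcng2, which rises from 2.16 to 5.66 FPKM, and Kcnab1 goes up from 32.9 to 51.5 FPKM.

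The 4 lower members were Kcng1, Kcnk12, Kcna6 and Kcna3. Kcng1 was at 24.6 FPKM in control and 13.3 FPKM in susceptible (-0.84), a ratio of 0.541 with a counting interval of 0.502 to 0.584. Kcnk12, a subunit that is retained inside cells when expressed alone, was at 8.71 and 4.66 FPKM (-0.78). Kcna6 was at 40.3 and 23.7 FPKM (-0.74) and Kcna3 at 13.5 and 8.41 FPKM (-0.62). Kcna3 shares its locus with other listed genes and Kcna6 its exons with Gm26673, as given above. In the authors' deposited table the p-values were 0.0106 for Kcng1, 0.0119 for Kcna6 and 0.0431 for Kcnk12, and 0.048 for Kcnh7, which was within the rule (14.4 to 9.44 FPKM, -0.56).

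Of the higher members, the silent modifier Kcng2 was at 2.16 and 5.66 FPKM (1.07), a ratio of 2.62 with a counting interval of 2.07 to 3.35. Kcnab1, a partner of Kcna channels, was at 32.9 and 51.5 FPKM (0.63). Centred as above, with the same limit, Kcnab1 was at 0.39 and no longer past the rule. Kcng2 and Kcnab1 both lie in loci shared with other listed genes. Among members in a locus of their own, a choice made after seeing the data, 0 of 27 were higher and 2 were lower.

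By class, 13 of 15 voltage-gated members lay below control, with a median of -0.35, among them Kcna2 (35.9 to 24.5 FPKM, -0.53) and Kcnh2 (11.4 to 8.20 FPKM, -0.43), both within the rule. Kcnh4 and Kcnh5 lay above, at 0.21 and 0.28. Of 5 silent modifiers 4 lay below, Kcnf1 going from 68.3 to 46.4 FPKM (-0.55). None of 7 inward rectifiers reached the rule. Among them Kcnj9 (-0.39), Kcnj10 (-0.46) and Kcnj16 (-0.40) lay below control while Kcnj2 (1.68 to 2.86 FPKM, 0.53) and Kcnj11 (9.71 to 13.1 FPKM, 0.40) lay above. Tandem-pore members had a median of 0.23 over 5. Kcnk13, at 0.715 and 1.36 FPKM (0.46), passed the floor only by being above control, and the median of the other 4 was -0.05. Centred on the median of all genes, with the limit given above, Kcnh4, Kcnj8 and Kcnk6 turned to below control. Their direction thus depends on that centre. The 3 calcium- and sodium-activated members lay below control, the furthest being Kcnt2 (11.8 to 8.06 FPKM, -0.50).

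Beside these values, 7 neuron markers had a median of -0.47 and a summed level of 2426 and 1744 FPKM, and 9 of 9 oligodendrocyte markers were higher (611 to 1579 FPKM). Microglia markers had a median of -0.35 with 1 of 8 higher and 2 lower, and astrocyte markers had a median of 0.57. Striatal neuron markers went from a summed 47.0 to 102 FPKM, and the 4 at 1 FPKM or more in control were higher. Of the 36 members 16 lay within the range of the neuron markers, 20 above it and 0 below. Beside the 3 excitatory neuron markers, 3 members lay below the lowest (-0.70) and 24 above the highest. The part of these markers in the members' differences was not tested. Channel partner proteins had a median of -0.52. Of 10, all at 1 FPKM or more in control, 3 were lower and 0 higher, beside 12.4% and 13.5% of all such genes. Among the lower were Rgs7bp (61.4 to 39.8 FPKM, -0.61) and the axonal organiser Cntnap2 (43.8 to 27.4 FPKM, -0.66).

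The experiments share no library, so the members' differences can be set side by side. Of 34 members past the floor in both tables, 24 lay below the baseline in both, beside 36% of all genes past the floor in both, and 3 above it in both, Kcnk6, Kcnk13 and Kcnj8, beside 46.3%, of which Kcnk6 and Kcnj8 turn sign after stress when centred. Kcnk13 was under 1 FPKM in control and Kcnj8 with AAV-GFP, so each passed the floor in 1 table only by being above its baseline there, as did other genes in the 46.3%. Such genes are also among those from which the 36% was taken, and make it smaller. Only Kcng1 and Kcnk12 were lower by the rule in both, beside 4.32% of all genes. Of the 24 members below both, 20 had the larger decrease with AAV-CDYL. The same count was not taken over all genes. Their differences spread more widely with AAV-CDYL, at an interquartile range of 1.19 against 0.90 after stress. The 20 are therefore not read as a result about the members. Kcnj10 lay below control after stress (-0.46) and above AAV-GFP with AAV-CDYL (0.68). Kcnab1, Kcng2, Kcnh4, Kcnh5, Kcnj11 and Kcnk9 did the reverse, lying above control and below AAV-GFP. Kcnj11 was at 9.71 and 13.1 FPKM in the stress pair and at 15.3 and 7.85 FPKM in the virus pair. Across the 34 genes, which are not independent replicates, the differences correlated at 0.38 by Pearson and at 0.38 by Spearman.

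**Figure D4:**
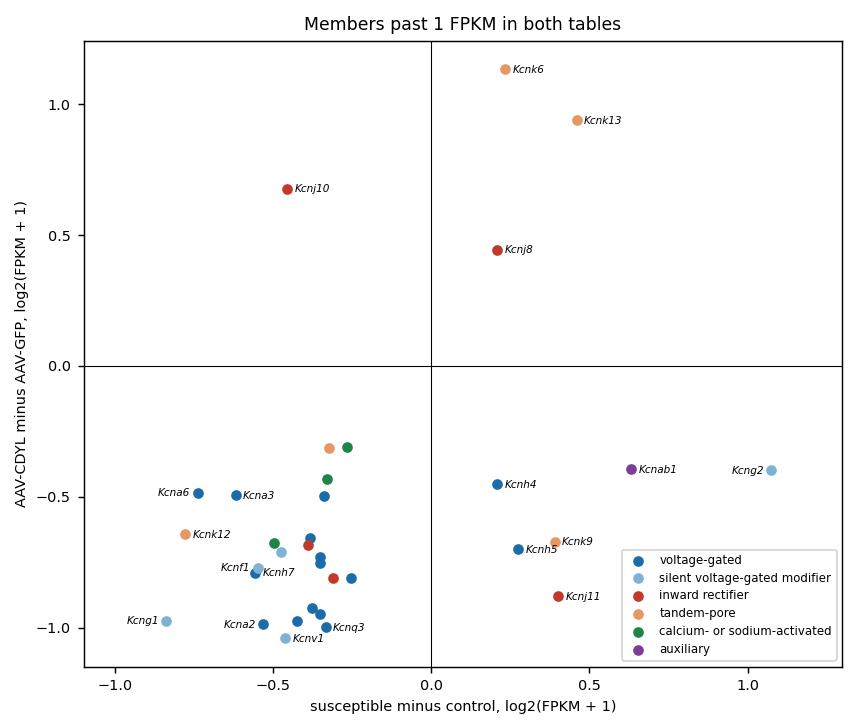
Difference of each of the 34 members past 1 FPKM in both tables, susceptible minus control on the horizontal axis and AAV-CDYL minus AAV-GFP on the vertical axis, in log2(FPKM + 1), coloured by class, with names for members outside the dense cluster. The lower left holds 24 members, with Kcng1 furthest to the left, and the upper right holds Kcnk6, Kcnk13 and Kcnj8.

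The baseline libraries ranked these members almost alike, although the tables were normalized separately. Spearman's rho between control and AAV-GFP levels was 0.98 over the 34, and 28 of them lay within 1.3-fold. The largest ratio between the baselines was 1.81, for Kcnk9 at 8.92 FPKM in control and 16.1 FPKM with AAV-GFP, followed by Kcnk13 (0.715 and 1.27 FPKM), Kcnj8 (1.25 and 0.760 FPKM), Kcnj11 (9.71 and 15.3 FPKM) and Kcnab1 (32.9 and 49.9 FPKM). Of these 5, Kcnk13 and Kcnj8 lay above the baseline in both experiments and the others had opposite signs.

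Nearest the rule with AAV-CDYL, Kcnip2 was inside (-0.59) and Kcnab2 outside (-0.55), and Kcnj10 was inside (0.68) and Kcnu1 outside (0.50). After stress Kcna3 was inside (-0.62) and Kcnh7 outside (-0.56), and Kcnab1 inside (0.63) and Kcnj2 outside (0.53). In the authors' deposited table no member had a q-value under 0.05 in either comparison, beside 1.65% of all genes with AAV-CDYL and 0.694% after stress, the lowest being 0.818 with AAV-CDYL and 0.817 after stress. Their p-value was under 0.05 for 6 members with AAV-CDYL, beside 9.39% of all genes, and for 4 after stress, beside 8.94%.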

How the data were processed

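Per the labels' protocols, a NEBNext Ultra kit was used on 1 µg of RNA from frozen tissue. The deposited FPKM values come from Cuffdiff on mm10, per the submitters' processing notes. Which aligner and gene annotation were used is not given in the sources used here. The deposited log2 fold change column was treated as a score and not used. The p-values and q-values in the tables are the authors'. The header name of the susceptible column lacks a letter and was matched to its title; 0 sample columns were left unmapped.

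Differences were taken within a table as log2(FPKM + 1) among genes at 1 FPKM or more in either library, with a rule of 1.5-fold and no p-value. Members, lists and rules were chosen with earlier results of these data known. Named members were, per class, up to 4 with the largest difference each way, the 3 highest levels, those that differed in both experiments, those at the authors' p under 0.05 and those nearest the rule. Some of these genes are not reported here by name or drawn with their levels, but stay in the counts, sums and medians. Effective depth came from low FPKM values of genes with 1 transcript of 3 to 20 kb in GENCODE M21, and 84.6% to 88.0% of those below 4.5 steps fell no further than 0.15 from a whole step. About 33.3% of genes in the virus table and 31.2% in the stress table share a locus. Motifs were searched in the 250 bases upstream in RefSeq's promoters. The procedure was tested on simulated data. Alternatives were other pseudocounts, floors, rules and scalings. Tables were computed with pandas 2.3.3, scipy 1.17.1 and numpy 2.4.6 in Python 3.11.15, and plots drawn with matplotlib 3.10.9.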

Additional observations from a re-analysis of the deposited data

How the results depend on the processing

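No paired analysis was possible because each group has 1 library. With AAV-CDYL, the 5 higher members became 2 at a floor of 5 FPKM, 3 at a 2-fold rule, 3 at 1 FPKM or more with AAV-GFP (chosen after seeing the data), 0 by the authors' q under 0.05 and 2 by their p under 0.05; the 37 lower became 2, 0 and 4 at the 2-fold rule and the authors' q and p. The median of -0.66 became -0.52 with no floor and -0.96 when centred on the median of all genes, 0.30. After stress, the 2 higher became 4 at pseudocounts of 0.1 and 0.5, 1 at 2-fold, 1 when centred, 0 in a locus of their own (chosen after seeing the data) and 0 by the authors' q and p. The 4 lower became 0 at 2-fold, 19 when centred, 2 in a locus of their own and 0 by q, and the median of -0.35 became -0.60 when centred on 0.24. Centring moved these counts by its own construction. Both centres include genes under 1 FPKM in the baseline library, which pass the floor only by being higher. At 1 FPKM or more there, the medians of all genes were -0.32 with AAV-CDYL and -0.29 after stress. For the other changes the cause was not tested. No member past the rule changed sign under any setting run; Kcnh4, Kcnj8 and Kcnk6, within the rule after stress, did so when centred. Scaling to a common upper quartile ended the call of 7 members with AAV-CDYL and 1 after stress. Depth limits members under 1 FPKM, and with 1 library per group the spread between mice is not known.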

Other observations

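Antisense genes of members were listed as well and are no members. Kcnmb4os2, antisense to the calcium-activated channel subunit Kcnmb4, was at 13.4 FPKM with AAV-GFP and 8.60 FPKM with AAV-CDYL, and at 12.7 FPKM in control and 9.23 FPKM in susceptible. Kcnd3os was at 1.17 and 0.753 FPKM in the virus pair and at 0.620 and 1.19 FPKM in the stress pair. Without strand, fragments of these genes and of their sense partners cannot be told apart.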
